A study of Homo sapiens with 8 samples.

Results

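The listed genes are 10 regulators of the passage from G1 into S phase, namely the CDK inhibitors *CDKN1A*, *CDKN1B* and *CDKN1C*, the cyclins *CCND1*, *CCND2*, *CCND3* and *CCNE1*, the kinases *CDK4* and *CDK6*, and *RB1*. They were given by name, with earlier results of these data known, and stand among 19974 protein-coding genes. H3K27ac peaks were collected over each gene and 20 kb on either side. The measurements come from MIA PaCa-2, a human line of epithelial pancreatic carcinoma, in a pair of stable derivatives that both carry the CRISPR activation system. MP2_HDAC1_OE carries an sgRNA that activates *HDAC1*, and MP2_NTC carries a non-targeting sgRNA. Each line had 2 samples precipitated with an H3K27ac antibody and 2 control samples without an antibody, and the authors deposited 1 list of reproducible peaks per line, so no spread between samples can be given and nothing below was tested. Each line is a single stable line, so activation of *HDAC1* and any other difference between the lines cannot be told apart.

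In G1, D cyclins bind CDK4 and CDK6, cyclin E binds CDK2, and these kinases phosphorylate RB, which then releases E2F factors to drive S phase genes. The CDKN1 proteins p21, p27 and p57 bind cyclin and CDK complexes and hold the cell in G1. H3K27ac marks active promoters and enhancers, and HDAC1 removes acetyl groups from histones. *CDKN1A* is a textbook gene repressed by HDAC1, which is recruited through SP1 at GC boxes of its promoter and whose inhibition induces p21. The comparison therefore asks whether the mark at *CDKN1A* and the other genes was lower in MP2_HDAC1_OE.

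The MP2_HDAC1_OE list held 25045 peaks and the MP2_NTC list 22569 peaks, and the depth of the libraries is unknown. Peaks that shared at least 1 bp were merged into regions, which were shared when they held peaks of both lines and otherwise unique to a line. A signal is the value that the authors list per peak. Its scaling between the lists is not stated, so a peak was ranked by the percentage of peaks of its own list with a lower signal. Signals of a shared region were compared as log2 of MP2_HDAC1_OE over MP2_NTC minus the median of all 9477 shared regions. As an alternative, signal times width was summed over the listed peaks of a region, and an interval counted each time it was listed. A width of 820 bp was shared by 56.4% of MP2_HDAC1_OE peaks and 61.7% of MP2_NTC peaks, so peak width is a limited measure of the breadth of the mark. Beside the start of *HDAC1* itself, the shared region had signals of 91.6 in MP2_HDAC1_OE and 44.1 in MP2_NTC, a centered log2 ratio of 1.11. A region 127 bp from the 5′ end of *HDAC1* was unique to MP2_NTC, with a signal of 46.7, and the other shared region of its window had a ratio of -0.47. Of 7 markers of an epithelial carcinoma line, 1 (*KRT7*) had no peak in the window, against 36.6% of all protein-coding genes, and 3 (*KRT7*, *CDH1* and *EPCAM*) had none within 2 kb of a start, against 50.3%. The 4 with a peak near a start were *KRT8*, *KRT18*, *KRT19* and *VIM*, of which *VIM* is a mesenchymal gene and not an epithelial one. The windows of *KRT8* and *KRT18* had the same highest MP2_NTC signal, 68.9. Of 11 markers of blood, endothelium, stroma, liver, acinar and islet cells, 6 had no peak in the window and 9 had none within 2 kb of a start, the exceptions being *SPI1* and *CDH5*.

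The promoters of 4 of the genes are shown because the peaks lie over them in different ways. Each sequence is the 250 bases before a RefSeq transcription start in GRCh38.p14, written 5′ to 3′ on the strand of the gene. Capitals mark GGGCGG (or its reverse complement), the GC box to which SP1 binds, and CACGTG, the E box to which MYC binds, and none of these matches is evidence of binding.
CDKN1A, chr6:36678464-36678713, plus strand, no peak in either list within 20 kb of the gene: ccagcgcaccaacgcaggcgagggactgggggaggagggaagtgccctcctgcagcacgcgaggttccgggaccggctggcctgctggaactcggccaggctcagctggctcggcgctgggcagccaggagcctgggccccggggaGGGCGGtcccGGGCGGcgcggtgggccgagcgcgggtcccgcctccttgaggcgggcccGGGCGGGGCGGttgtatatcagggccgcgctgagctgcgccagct
CDKN1B, chr12:12717118-12717367, plus strand, in a gap between peaks in both lists: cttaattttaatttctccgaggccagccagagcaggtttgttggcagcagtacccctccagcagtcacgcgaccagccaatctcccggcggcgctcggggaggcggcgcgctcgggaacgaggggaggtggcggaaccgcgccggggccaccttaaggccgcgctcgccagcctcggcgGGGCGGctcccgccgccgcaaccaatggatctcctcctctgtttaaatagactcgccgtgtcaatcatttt
CCNE1, chr19:29811741-29811990, plus strand, reached by a peak of MP2_HDAC1_OE alone: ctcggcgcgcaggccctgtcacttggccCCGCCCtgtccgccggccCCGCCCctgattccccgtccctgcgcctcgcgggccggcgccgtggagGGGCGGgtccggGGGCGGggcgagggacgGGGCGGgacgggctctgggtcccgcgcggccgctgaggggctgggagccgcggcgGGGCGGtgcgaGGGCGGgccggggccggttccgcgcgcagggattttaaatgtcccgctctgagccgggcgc
CDK4, chr12:57752311-57752560, minus strand, under peaks of both lists: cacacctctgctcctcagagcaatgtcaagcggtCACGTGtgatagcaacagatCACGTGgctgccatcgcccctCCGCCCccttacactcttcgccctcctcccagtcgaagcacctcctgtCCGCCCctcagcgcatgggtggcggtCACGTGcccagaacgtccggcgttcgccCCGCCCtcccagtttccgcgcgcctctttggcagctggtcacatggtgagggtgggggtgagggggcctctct
The window of *CDKN1A* held 4 matches to the GC box, that of *CDKN1B* 1, that of *CCNE1* 7 and that of *CDK4* 3. Among 22132 such windows of protein-coding genes, 53.7% held at least 1. The E box was found 3 times at *CDK4* and in 7.37% of the windows of protein-coding genes. A peak of either list overlapped 38.7% of these windows. Of the listed genes, 7 had an entry in the promoter table (for *RB1* a start inside the gene alone), and *CDKN1C*, *CCND1* and *CCND2* had none.

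No H3K27ac peak of either list lay in *CDKN1A* (chromosome 6, 36676463 to 36687332) or within 20 kb of it. It was the only listed gene without a peak in this window, and 36.6% of all protein-coding genes had none either. The window also spans the noncoding genes *PANDAR* and *DINOL*. The lists hold only peaks that passed the authors' threshold and no signal elsewhere, so whether acetylation at *CDKN1A* was lower in MP2_HDAC1_OE cannot be read from them. In MP2_HDAC1_OE the nearest peak lay 33.0 kb below the gene start, at 36642663 to 36643482, and *CDKN1A* was the nearest protein-coding gene to it. This peak had a signal of 42.7, ranked above 42.6% of its list and was unique to MP2_HDAC1_OE. In MP2_NTC the nearest peak on that side lay 81.5 kb away, beside *SRSF3*, a splicing factor gene, with a signal of 50.8. On the other side both lines had their nearest peaks about 187 kb away, in a shared region over *C6orf89* and *PPIL1*, with highest signals of 77.4 in MP2_HDAC1_OE and 128 in MP2_NTC and a log2 ratio of -0.67. The plot of the peaks around *CDKN1A* shows this wide stretch without a listed peak.

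**Figure D1:**
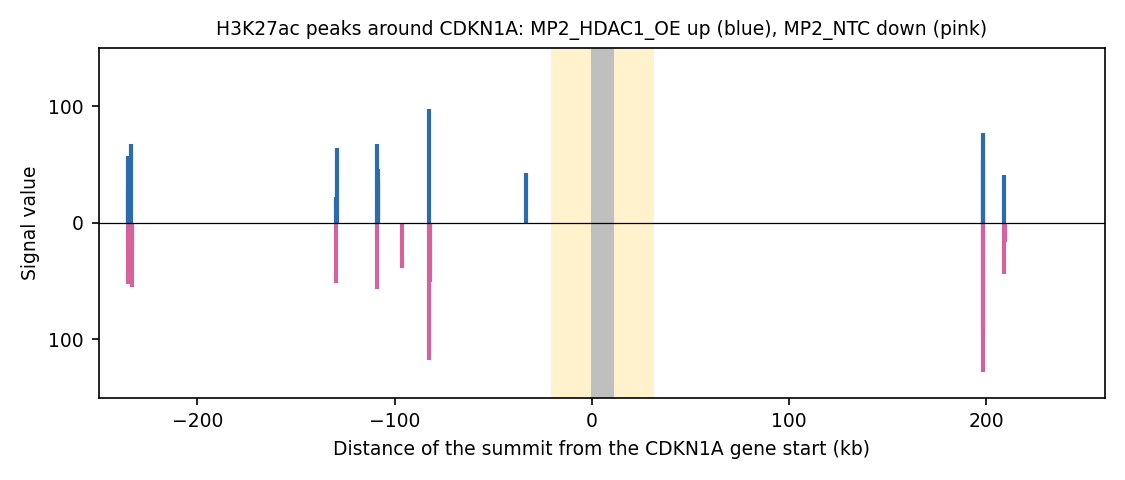
Signal of each H3K27ac peak (upward for MP2_HDAC1_OE in blue, downward for MP2_NTC in pink) against the distance of its summit from the lower end of CDKN1A in kb, with the gene in grey and 20 kb either side in yellow. No peak of either list lies in the yellow or grey span, and the single MP2_HDAC1_OE peak nearest to it, with a signal of 42.7, has no MP2_NTC partner.

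At *CDKN1B*, which encodes p27, 8 regions were found, the most of any listed gene, and the lines differed in where the strong peaks lay. In MP2_NTC the strongest peak lay before the start of the gene, over the neighboring receptor gene *GPR19*, and in MP2_HDAC1_OE the strongest peaks lay in and behind the gene. The first region (12714079 to 12715081) had a signal of 27.6 in MP2_HDAC1_OE and 88.5 in MP2_NTC, a log2 ratio of -1.62 that was lower than in all but 0.665% of shared regions. The peaks of the lines overlapped by 140 bp there. When signal times width was summed over the region the ratio was -0.22. Next to it lay a region unique to MP2_NTC (12715803 to 12717117) with 3 peaks and a highest signal of 67.1, which ended directly before the printed promoter. Inside the gene, the region that begins 64 bp after the start (12717432 to 12718271) had a signal of 86.9 in MP2_HDAC1_OE and 45.0 in MP2_NTC, a log2 ratio of 1.01. These signals ranked above 92.1% and 41.9% of their lists.

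Further inside *CDKN1B* the order was the opposite. A shared region at 12719293 to 12720716 had signals of 16.1 in MP2_HDAC1_OE and 42.4 in MP2_NTC, a log2 ratio of -1.34. A region at 12721301 to 12722120 was unique to MP2_NTC, with a signal of 41.6. The highest ratio among the shared regions of the listed genes was found 1596 bp behind the gene, in the region 12723965 to 12725388 between *CDKN1B* and *APOLD1*, where the signal was 116 in MP2_HDAC1_OE and 38.9 in MP2_NTC. Its log2 ratio of 1.63 was higher than in 99.3% of shared regions, and its strongest peak stood above 98.5% of peaks in MP2_HDAC1_OE and 30.3% in MP2_NTC. The 2 remaining regions overlapped *APOLD1*. At 12726605 to 12727003 the signals were 65.3 in MP2_HDAC1_OE and 70.7 in MP2_NTC, a log2 ratio of -0.06. It was 1.32 with signal times width, where the same MP2_HDAC1_OE interval was listed and counted 2 times. The region at 12734572 to 12735679 was unique to MP2_HDAC1_OE, with a signal of 42.2. Single regions of *CDKN1B* were thus both higher and lower in MP2_HDAC1_OE, which a single value per gene does not show.

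*CDKN1C*, the imprinted gene of p57, had no peak in the gene itself (chromosome 11, 2883218 to 2885775) or within 2 kb of its ends. The nearest region lay 6189 bp away, was unique to MP2_NTC (2891964 to 2892783) and had a signal of 47.1. Farther off, 3 regions unique to MP2_HDAC1_OE with signals of 11.7, 20.8 and 39.9 and a shared region lay beside or in *SLC67A1*, so that *CDKN1C* was not their nearest protein-coding gene. The shared region (2902308 to 2903407) had signals of 61.7 in MP2_HDAC1_OE and 44.1 in MP2_NTC. Its log2 ratio of 0.54 was -1.73 when signal times width was summed, since the single MP2_HDAC1_OE peak covered 312 bp and the MP2_NTC peaks 1100 bp.

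The D cyclin genes had few peaks, and most of these lay over neighboring genes. *CCND1* (chromosome 11, 69641156 to 69654474) had 1 region, unique to MP2_HDAC1_OE and 1778 bp below the gene (69638559 to 69639378), with a signal of 34.0 and a rank of 26%. The nearest MP2_NTC peaks lay 197 kb below and 20.9 kb above the gene, the latter nearest to *LTO1*. *CCND2* (chromosome 12, 4273762 to 4305353) had no MP2_HDAC1_OE peak in its window, and its 1 region (4320415 to 4321234) was unique to MP2_NTC, with a signal of 67.3 above 74.6% of its list. This region lay 15.1 kb from *CCND2*, at the start of *TIGAR*, a p53-induced regulator of glycolysis. The nearest MP2_HDAC1_OE peak above *CCND2* lay 233 kb away.

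*CCND3* (chromosome 6, 41934933 to 42050035) had no peak inside the gene and a shared region on either side. At the region over the neighbors *MED20*, a Mediator subunit gene, and *BYSL*, a ribosome biogenesis gene, the highest signals were 102 in MP2_HDAC1_OE and 101 in MP2_NTC. The log2 ratio there was 0.07, and -0.77 with signal times width. The other region (42050274 to 42051120) overlapped *TAF8*, a TFIID subunit gene, and began 239 bp beyond the upper end of *CCND3*, which is its 5′ end. The signals of this region were 44.7 in MP2_HDAC1_OE and 54.6 in MP2_NTC, above 46.5% and 58.8% of their lists, a log2 ratio of -0.23.

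At the start of *CCNE1*, which encodes cyclin E1, the mark ranked lower in MP2_HDAC1_OE. Its single region (chromosome 19, 29810746 to 29811887) ended 104 bp before the gene. The highest signal was 43.1 in MP2_HDAC1_OE, above 43.4% of the list (95% Wilson interval 42.7% to 44.0%), and 75.7 in MP2_NTC, above 81.9% of the list. Such an interval treats the listed peaks as independent draws and gives no spread between samples. The log2 ratio was -0.75, below all but 7.49% of shared regions, and -0.52 with signal times width. Of the 250 promoter bases shown above, peaks of MP2_HDAC1_OE covered 147 and peaks of MP2_NTC covered 0. These 147 bases lay under the weaker MP2_HDAC1_OE peak (29811068 to 29811887), with a signal of 14.0 above only 2.98% of its list. The MP2_HDAC1_OE peak with the signal of 43.1 ended before the printed bases.

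*CDK4* had a shared region over its start (chromosome 12, 57751651 to 57752672). The highest signal was 37.7 in MP2_HDAC1_OE, above 31.9% of the list, and 58.4 in MP2_NTC, above 64.2% of the list. The log2 ratio of -0.57 lay just inside the limit of 1.5-fold, and it was 0.13 with signal times width, because MP2_HDAC1_OE had 2 overlapping peaks there and MP2_NTC 1. At the far edge of the window, 19.5 kb from *CDK4*, a region over *METTL1*, a tRNA methyltransferase gene, was unique to MP2_NTC with a signal of 39.6. The next region (57772211 to 57773304), over *EEF1AKMT3*, had signals of 85.9 in MP2_HDAC1_OE and 48.8 in MP2_NTC, a log2 ratio of 0.87, although its MP2_HDAC1_OE peaks lay outside the window. By highest signal, the start of *CDK4* was thus lower in MP2_HDAC1_OE and the region over *EEF1AKMT3* higher. The *METTL1* region had an MP2_NTC peak alone.

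*CDK6* (chromosome 7, 92604921 to 92836573) had no peak within 2 kb of a start in either list. Inside the gene, 189554 bp from its 5′ end, a region unique to MP2_HDAC1_OE (92645633 to 92647019) held 3 peaks, the strongest with a signal of 28.1 above 19.5% of the list. The strongest peaks of the window lay at the start of *FAM133B*, with signals of 92.4 in MP2_HDAC1_OE and 113 in MP2_NTC. They ranked above 94.2% and 96.4% of their lists, and the log2 ratio was -0.23, or 0.04 with signal times width.

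*RB1*, the gene of the retinoblastoma protein, had 1 region (chromosome 13, 48302416 to 48303659), which ended 92 bp before the gene and overlapped the divergent noncoding gene *RB1-DT*. MP2_HDAC1_OE had 1 peak there (48303395 to 48303659) with a signal of 53.1 and a rank of 62.0% (95% Wilson interval 61.4% to 62.6%, without spread between samples). MP2_NTC had 2 peaks, and the one nearer to *RB1* (48303191 to 48303404) had a signal of 39.8 and a rank of 31.9%. The peaks of the lines shared no more than 10 bp, so the region counts as shared only because of a narrow overlap. Its log2 ratio was 0.48, and -0.32 with signal times width. The maps of *CDKN1B*, *CDKN1C*, *CCND1*, *CCNE1*, *CDK4* and *RB1* show these positions side by side.

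**Figure D2:**
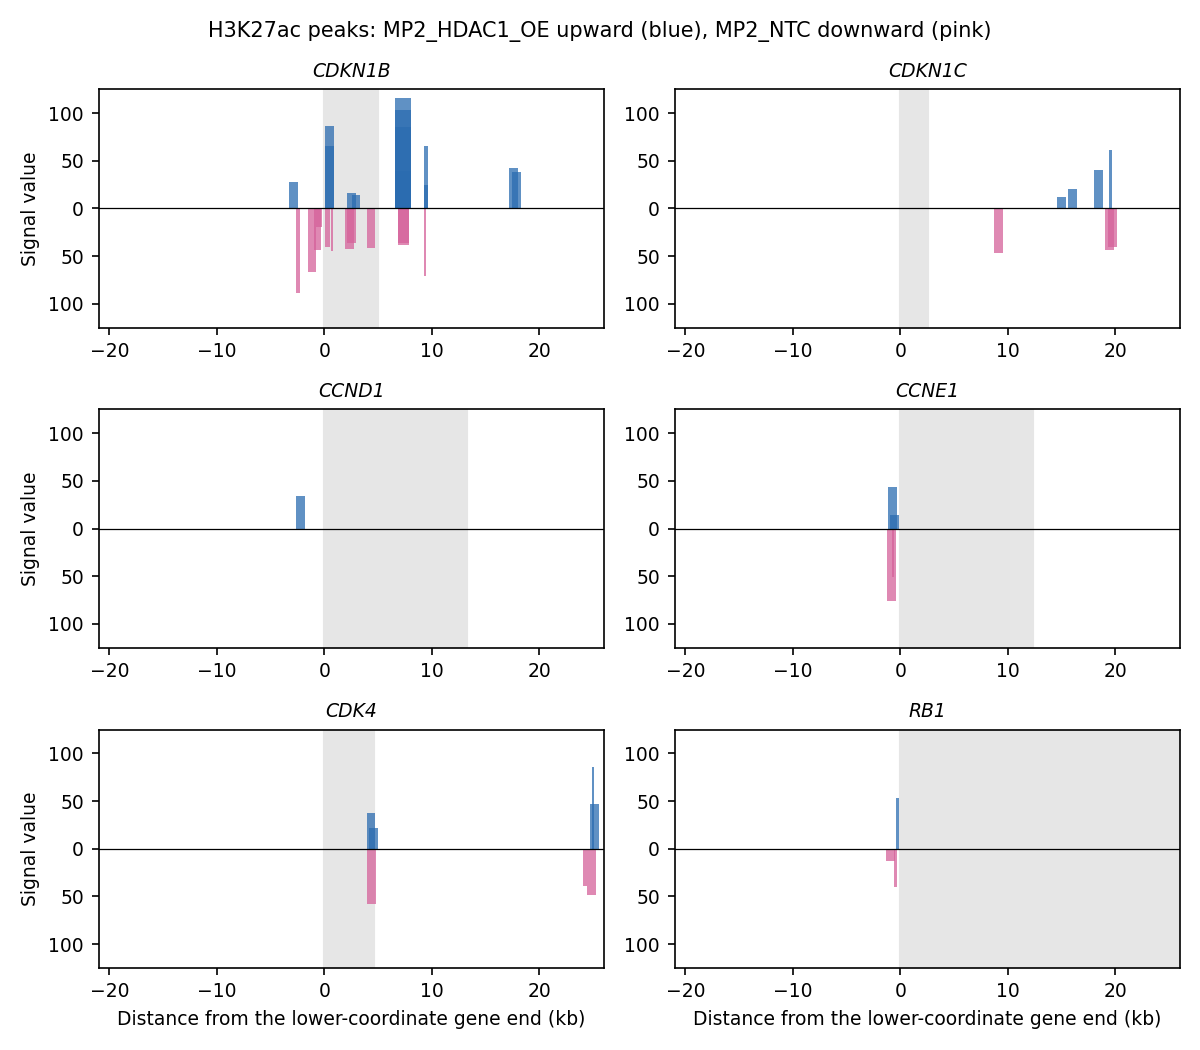
Signal of each H3K27ac peak (upward for MP2_HDAC1_OE in blue, downward for MP2_NTC in pink) against the distance from the lower-coordinate end of 6 genes in kb, with bars as wide as the peaks and the gene in grey. At CDKN1B the tallest MP2_HDAC1_OE bars, up to 116, stand behind the gene and the tallest MP2_NTC bar, 88.5, stands before it.

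Over the 10 genes, 24 regions were found, of which 13 were shared, 6 were unique to MP2_HDAC1_OE and 5 were unique to MP2_NTC. Of the 10 genes, 4 had a region unique to MP2_HDAC1_OE, against 26.4% of all protein-coding genes, and one unique to MP2_NTC also at 4 of 10, against 23.5%. A shared region was found at 7 of 10, against 51.1%. The median window was 52.8 kb for the listed genes and 64.2 kb for all. For 15 of the 24 regions another protein-coding gene was nearer than the listed gene. Of the 9 regions that lay nearest to the listed gene, 5 were shared, 2 were unique to MP2_HDAC1_OE (at *CCND1* and *CDK6*) and 2 were unique to MP2_NTC (at *CDKN1B* and *CDKN1C*). Within 2 kb of a RefSeq start or the 5′ end of the gene, or of both gene ends where the promoter table gives no start, 4 of the 10 genes had no peak of either list, namely *CDKN1A*, *CDKN1C*, *CCND2* and *CDK6*, against 50.3% of all protein-coding genes.

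The strongest peak of the window ranked at least 10 points lower in MP2_HDAC1_OE at 2 of the 7 genes with peaks of both lines, namely *CCNE1* with a difference of -38.5 points and *CDK4* with -32.3 points. Of all 10662 protein-coding genes with peaks of both lines, 19.9% had such a difference. It ranked at least 10 points higher at *CDKN1C* with 27.8 points and at *RB1* with 30.1 points, against 27.1% of all. The differences at *CDKN1B*, *CCND3* and *CDK6* were 9.06, 2.40 and -2.22 points. The difference at *CDKN1B* was 17.6 points within 2 kb of its start and 13.2 points when merged intervals were ranked, both past 10 points. At *CDKN1B*, *CDKN1C* and *RB1* the strongest peaks of the lines lay at different places. For *CDKN1C* the MP2_HDAC1_OE peak (2902628 to 2902939) lay in *SLC67A1*. The only region with *CDKN1C* as its nearest protein-coding gene was unique to MP2_NTC. The median difference was 2.40 points over the 7 genes and 1.13 points over all. With 50 kb on either side the difference at *CCNE1* was 14.0 points and at *CDK4* 24.3 points, and with 5 kb both were as above. At *CDK4* stronger peaks nearest to other genes came into the window. At *CCNE1* an MP2_HDAC1_OE peak 21.2 kb above the gene came in, with a signal of 98.8 above 95.9% of its list. *CCNE1* was the nearest protein-coding gene to this peak. The nearest MP2_NTC peak above the gene lay 20.9 kb away, with a signal of 68.5. With 5 kb on either side *CCND3* had a difference of -12.3 points, since the peaks at *MED20* and *BYSL* fell outside. Differences within 2 kb of a start were -38.5 points at *CCNE1*, -32.3 at *CDK4*, -12.3 at *CCND3*, 30.1 at *RB1* and 17.6 at *CDKN1B*. The other listed genes lacked a peak of at least 1 line there. The *CCND3* value came from the region over *TAF8*. The shares over all genes were not computed for this window, so these differences have no background.

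**Figure D3:**
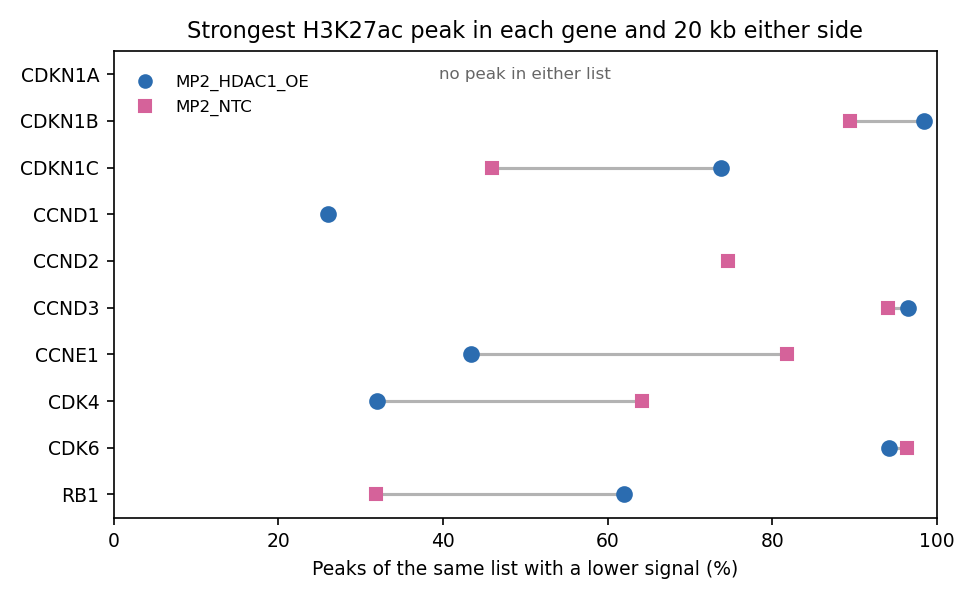
Rank of the strongest H3K27ac peak of each gene and 20 kb either side, as the percentage of peaks of the same list with a lower signal, in MP2_HDAC1_OE (blue circles) and MP2_NTC (pink squares), each from 1 pooled list. CCNE1 and CDK4 rank lower in MP2_HDAC1_OE, with differences of -38.5 and -32.3 points, CDKN1C and RB1 rank higher by 27.8 and 30.1 points, and CDKN1A has no peak. The MP2_HDAC1_OE peak of the CDKN1C window lies in SLC67A1.

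Of the 13 shared regions, 3 had a lower signal in MP2_HDAC1_OE by at least 1.5-fold, against 12.4% of all shared regions, and 3 had a higher one, against 12.2%. The lower ones were a pair at *CDKN1B* and the one at *CCNE1*, and the higher ones were a pair at *CDKN1B* and the one over *EEF1AKMT3*. The ratio was below 0 at 7 of 13, and the median was -0.06.

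**Figure D4:**
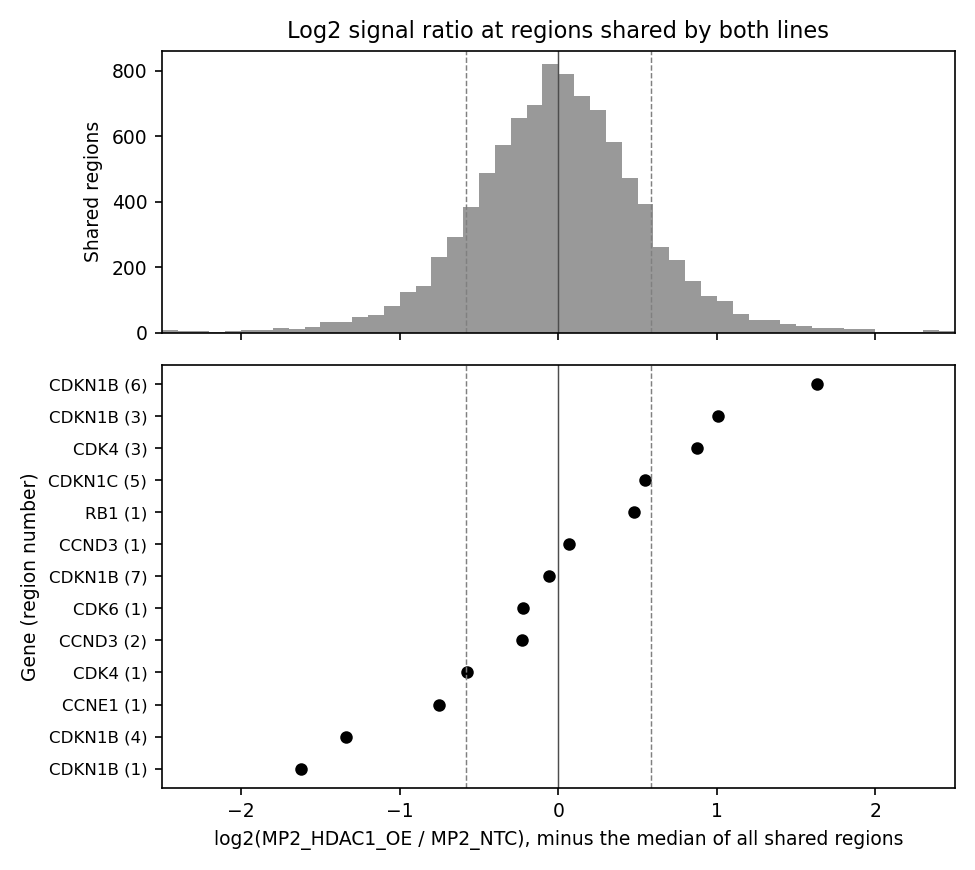
Number of shared regions of the whole lists by log2 signal ratio (top, values beyond 2.5 in the outermost bars) and the ratio at the 13 shared regions of the listed genes (bottom, numbered in genome order within each gene), with dashed lines at 1.5-fold. The ratios run from -1.62 to 1.63, and both ends are regions of CDKN1B.

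Other genes of the same network were read from lists of CDK inhibitors, G1/S cyclins and kinases, pocket proteins and E2F factors, activators and degradation factors, and the p53 axis, with 47 genes in all. No peak was found in the window of 9 of them, against 36.6% of all protein-coding genes, among them *CDKN2A* and *CDKN2B*, the genes of p16 and p15. The lists cannot tell a locus without the mark from a locus that is missing from the DNA of the line. Of 37 with peaks of both lines, 9 ranked at least 10 points lower in MP2_HDAC1_OE, 8 at least 10 points higher and 20 in between, with a median difference of 1.0 point. Over all protein-coding genes with peaks of both lines, 19.9% ranked lower and 27.1% higher by this limit. The gene with the largest difference was *AMBRA1*, whose product promotes the degradation of D cyclins. Its 9 regions included 7 unique to MP2_HDAC1_OE, and the rank of its strongest peak was 88.7% in MP2_HDAC1_OE and 47.8% in MP2_NTC. The opposite was found at *FBXO4*, an F-box gene, with 54.0% and 94.4%. *CDKN2C*, which encodes the CDK4 and CDK6 inhibitor p18, ranked above 40.4% in MP2_HDAC1_OE and 78.3% in MP2_NTC, and *SKP2*, whose F-box protein targets p27 for degradation, above 27.5% and 57.5%.

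*CDC25A*, a phosphatase gene that activates CDK2, ranked above 55.1% in MP2_HDAC1_OE and 20.1% in MP2_NTC. The window of *E2F1* ranked above 76.5% and 48.1%, from regions each unique to a line, and no region lay within 2 kb of its start. By list, the lower and higher counts were 1 and 0 of 2 CDK inhibitors, 1 and 2 of 6 cyclins and kinases, 3 and 1 of 8 pocket proteins and E2F factors, 2 and 4 of 11 activators and degradation factors, and 2 and 1 of 10 genes of the p53 axis. These counts are too small to be read against the shares over all genes.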

How the data were processed

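ChIP-sequencing of H3K27ac covered 2 samples of MP2_HDAC1_OE and 2 of MP2_NTC, beside 2 control samples without an antibody for each. Reads were processed by the authors with the pipeline of ENCODE, and the submitters' processing notes name hg38, BWA 0.7.12, SAMtools and Picard 1.88. The peak caller is not given in the sources used here. Each of the 2 deposited files is the optimal peak set from their reproducibility test across both samples, and gives an interval and a signal value per peak. The deposited score and the deposited −log10 of the reproducibility measure were not used. The lists hold no reads, so depth and its precision are unknown.

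Peaks sharing 1 bp were merged across the lines, and a region belonged to each gene whose RefSeq interval (GRCh38.p14) with 20 kb either side it overlapped. Exons and introns could not be told apart. Ranks are percentages of peaks of the same list with a lower signal, with 95% Wilson intervals. Limits were 10 points for ranks and 1.5-fold for ratios. No test was possible with 1 pooled list per line, and the backgrounds are all protein-coding genes or all shared regions. The 10 genes and the other lists were chosen with earlier results of these data known. Named besides the 10 genes were *HDAC1*, the 6 genes of the other lists with the largest rank difference, and neighbors that a region overlapped or lay nearest to. *CDKN2A*, *CDKN2B* and the cell type markers were named after their values were seen. Alternatives changed the overlap, the number of peaks, the window, the rank, the centering and the summary of a region. Computations used numpy 2.4.6, pandas 2.3.3 and matplotlib 3.10.9 under Python 3.11.15, and the merging and window queries were tested on simulated data.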

Additional observations from a re-analysis of the deposited data

How the results depend on the processing

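No paired analysis was possible because the samples of a line were pooled into 1 list, which also leaves no replicate to omit. Over the counts at the 10 genes, 31 alternatives left the value within 1.5 times and 19 moved it, most of them for regions unique to a line. Regions unique to MP2_HDAC1_OE (6) were 14 when single peaks had to overlap by 50% of both, 3 with the top 75% of peaks, 2 with 5 kb either side, 10 with 50 kb, 1 within 2 kb of a start and 2 where the listed gene was nearest. Those unique to MP2_NTC (5) were 16 with single peaks, 3 with gaps of up to 500 bp merged, 2 with 5 kb, 1 within 2 kb of a start and 2 where the listed gene was nearest. Shared regions (13) were 6 within 2 kb of a start and 5 where the listed gene was nearest. Single peaks, other windows and fewer peaks change these counts by construction. *CDKN1A* had 0 regions under the other alternatives and 1 with 50 kb either side.

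With 50 kb, 0 genes ranked at least 10 points lower in MP2_HDAC1_OE and 5 higher, and the differences at *CCNE1* and *CDK4* reversed to 14.0 and 24.3 points. With 5 kb, 3 genes ranked at least 10 points lower and 1 higher. The shares over all genes were not computed for 50 kb or 5 kb, so these counts have no background and show no shift. With equal numbers of peaks, 22569 per list, the 2 lower and 2 higher genes kept their direction. With the top 75% of peaks, 11 regions were shared, of which 1 was at least 1.5-fold lower and 3 were higher. Of 15 single pairs of peaks, a unit other than the merged region, 6 were lower and 3 higher by this limit. The shares over all regions or pairs were not computed for these settings. Of 39 alternatives for the ratio of a region, 32 left it on its side of 1.5-fold. Signal times width accounted for 5 of the others and turned the sign of 6 of the 13 ratios. The other 2 were at the start of *CDK4*, with no centering (-0.63) and with quantiles of the pooled signals (-0.60).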
